A study of Homo sapiens with 11 samples.

Results

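Expression of the hypoxia-inducible factor (HIF) genes and of HIF target genes outside glycolysis was examined in 11 PC-3 xenograft tumours. The 10 genes were taken by symbol from the 25590 genes listed in the count, RPM and RPKM tables, and all 10 were found and passed the filter on low counts. They are the HIF subunits HIF1A, EPAS1 and ARNT, the prolyl hydroxylases EGLN1 and EGLN3, and the targets CA9, NDRG1, BNIP3, ADM and P4HA1. PC-3 is an established human prostate cancer cell line, and the tumours grew under the skin of male athymic nude mice (Crl:NU-Foxn1nu), inoculated at an age of 8 weeks with cells in matrigel. From day 7 the mice received either PBS (5 tumours, called PBS-123 to PBS-127 after their labelled numbers) or 5.6 mg A2M* per injection into the peritoneum (6 tumours, called A2M-128 to A2M-132 and A2M-112). A2M* is the transformed form of the plasma proteinase inhibitor alpha-2-macroglobulin. All tumours came from the same cell line, in hosts that lack most T cells. The labels do not tie each tumour to a mouse, so that p-values measure the spread between these tumours only. The comparison asked whether A2M* treatment was accompanied by other levels of the oxygen-responsive genes. The paper reports that PC-3 xenografts grew less under A2M*. Sizes of these 11 tumours are not in the labels, so treatment and tumour size cannot be told apart here.

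HIF is a dimer of an alpha subunit, encoded by HIF1A or EPAS1 (HIF-2 alpha), and the constitutive beta subunit ARNT. In the presence of oxygen, prolyl hydroxylases hydroxylate the alpha subunit, which is then bound by the von Hippel-Lindau protein and degraded, so that oxygen acts on the alpha subunits mainly at the level of the protein. At low oxygen the dimer binds DNA elements with the core A or G followed by CGTG and activates transcription. Among its targets are EGLN3 and EGLN1 themselves, which form a negative feedback, and genes of pH control, mitophagy, vascular signalling and collagen synthesis. Solid tumours commonly hold areas of low oxygen, and HIF targets outside glycolysis serve as hypoxia markers there.

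Promoter windows of the hydroxylase and target genes that hold the HIF core motif are shown first, as the sequence context of the targets. They were chosen for holding a match, and the window of EGLN3, which has none, is not shown. The windows run from 250 bases before to 50 bases after the annotated start, were taken from RefSeq (GRCh38.p14) and were found for 9 of the 10 genes, all but NDRG1, with 2 windows for HIF1A. They were searched on both strands for ACGTG and GCGTG, and capitals mark each match, written as CACGT or CACGC where it lies on the other strand. In the EGLN1 window (chr1:231422238-231422537, minus strand) ACGTG begins 13 bases before the start. In the CA9 window (chr9:35673678-35673977, plus strand) ACGTG lies on the other strand 18 bases before the start. The BNIP3 window (chr10:131981874-131982173, minus strand) holds ACGTG on both strands, overlapping in CACGTG, and 4 matches of GCGTG on the other strand. In the ADM window (chr11:10304823-10305122, plus strand) GCGTG begins 101 bases before the start. In the P4HA1 window (chr10:73096817-73097116, minus strand) ACGTG lies on the other strand 86 bases before the start.
EGLN1: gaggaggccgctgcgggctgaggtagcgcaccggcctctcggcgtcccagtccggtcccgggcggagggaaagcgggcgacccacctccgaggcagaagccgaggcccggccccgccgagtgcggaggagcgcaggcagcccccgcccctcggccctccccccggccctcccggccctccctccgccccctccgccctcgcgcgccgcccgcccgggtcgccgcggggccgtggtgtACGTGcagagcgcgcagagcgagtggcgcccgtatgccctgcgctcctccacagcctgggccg
CA9: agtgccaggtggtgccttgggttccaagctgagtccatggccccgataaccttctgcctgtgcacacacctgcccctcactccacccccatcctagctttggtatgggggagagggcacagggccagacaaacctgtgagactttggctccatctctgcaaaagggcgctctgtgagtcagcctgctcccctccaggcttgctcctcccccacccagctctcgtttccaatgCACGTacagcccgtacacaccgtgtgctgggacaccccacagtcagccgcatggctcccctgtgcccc
BNIP3: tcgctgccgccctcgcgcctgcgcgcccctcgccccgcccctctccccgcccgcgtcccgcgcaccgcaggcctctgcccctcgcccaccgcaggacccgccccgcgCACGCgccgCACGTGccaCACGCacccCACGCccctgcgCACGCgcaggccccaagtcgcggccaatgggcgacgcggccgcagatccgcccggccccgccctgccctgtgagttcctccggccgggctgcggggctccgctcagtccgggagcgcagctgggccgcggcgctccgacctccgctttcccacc
ADM: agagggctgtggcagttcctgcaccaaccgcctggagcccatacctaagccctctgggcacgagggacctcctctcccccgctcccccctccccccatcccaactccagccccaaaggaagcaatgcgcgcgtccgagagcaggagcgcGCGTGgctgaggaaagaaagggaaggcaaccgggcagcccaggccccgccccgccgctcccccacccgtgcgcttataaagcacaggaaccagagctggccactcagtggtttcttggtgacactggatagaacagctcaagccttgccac
P4HA1: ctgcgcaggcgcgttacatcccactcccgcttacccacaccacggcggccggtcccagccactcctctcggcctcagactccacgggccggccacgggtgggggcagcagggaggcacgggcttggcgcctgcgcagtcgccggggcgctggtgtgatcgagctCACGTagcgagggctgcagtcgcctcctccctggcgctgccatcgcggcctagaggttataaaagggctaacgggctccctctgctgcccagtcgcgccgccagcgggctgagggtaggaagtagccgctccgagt
ACGTG was present in 4 of the 9 genes' windows and GCGTG in 4, and either was present in 7. Of all 35116 RefSeq windows of this length, 21.4% held ACGTG, 36.5% GCGTG and 48.4% either. HIF1A and EPAS1 each had GCGTG in a window, and the windows of ARNT and EGLN3 held neither. These matches describe the letters of the windows and are not binding sites.

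The tumours had 16958533 to 35874381 counts assigned to human genes, and 3 counts correspond to 0.0853 to 0.177 CPM (counts relative to the TMM-scaled library size, the unit used for levels between tumours). The epithelial markers KRT8, KRT18, KRT19, EPCAM and CDH1 summed to 2103 to 2699 CPM in PBS and 1685 to 2480 CPM in A2M* tumours. All 5 had lower fitted levels in A2M* tumours (50.6% of all genes tested). None had an unadjusted p under 0.05 (7.08% of all genes tested). Of the 5 luminal prostate markers, KLK3 was at 0 counts in every tumour and KLK2 at no more than 1. The 6 fibroblast markers summed to 317 to 695 CPM in PBS tumours and 318 to 926 CPM in A2M* tumours. Of these, DCN had at most 3 counts. All 4 that could be tested had higher fitted levels in A2M* tumours, where 50.6% of all genes tested had lower ones. COL1A2, with 38 to 170 counts, had an unadjusted p of 0.0459 in edgeR's quasi-likelihood test. Of all genes tested, 3.55% were higher at an unadjusted p under 0.05. Endothelial markers summed to 17.6 to 24.6 CPM against 15.8 to 23.1 CPM. VWF, with 11 to 33 counts, was lower in A2M* tumours at an unadjusted p of 0.0247 in the same test. Of all genes tested, 3.53% were lower at an unadjusted p under 0.05. Of the 4 endothelial markers that could be tested, 3 had lower fitted levels, PECAM1 by a log2 fold change of -0.01. TEK had a higher one (log2 fold change 0.27). Leukocyte markers summed to 11.7 to 13.7 CPM against 13.0 to 14.6 CPM. Of the 4 erythroid markers none passed the filter, HBA1 and HBA2 having no more than 1 count. Most of the fibroblast sum came from COL1A1 (means 456 CPM in PBS and 588 CPM in A2M* tumours). Most of the endothelial sum came from PECAM1 (17.5 and 17.4 CPM). The counts are of reads assigned to human, and the paper treats the stroma as mouse. The fibroblast, endothelial, leukocyte and erythroid sums therefore do not measure host cells. All these sums overlapped between the groups, and their part in the results was not tested.

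Levels of different genes were compared as RPKM, which divides by exon length. NDRG1, a stress-responsive gene with a role in differentiation and a standard hypoxia marker, had the highest median over the 11 tumours, 440.4 RPKM. P4HA1, a catalytic subunit of the enzyme that hydroxylates proline in collagen, followed at 157.4 RPKM. The median was 60.9 RPKM for BNIP3, a mitochondrial protein of mitophagy, and 50.6 RPKM for HIF1A. CA9, the carbonic anhydrase of the cell surface that takes part in pH control, had a median of 30.5 RPKM, and ADM, the vasodilator peptide adrenomedullin, one of 24.3 RPKM. The lowest medians were those of EPAS1 (19.7 RPKM), EGLN3 (13.9 RPKM), ARNT (13.3 RPKM) and EGLN1 (12.2 RPKM). The order was taken from the same 11 tumours that were then tested. Which genes were compared as neighbours was thus set by these data, and the tests are not independent of the order. Of the 9 pairs of neighbours in this order, 5 differed in an exact sign-flip permutation test over the 11 tumours with adjustment over the 9 pairs, namely NDRG1 over P4HA1, P4HA1 over BNIP3, CA9 over ADM, EPAS1 over EGLN3 and ARNT over EGLN1. The neighbours BNIP3 and HIF1A (exact adjusted p = 0.718), HIF1A and CA9 (exact adjusted p = 0.0674), ADM and EPAS1 (exact adjusted p = 0.215) and EGLN3 and ARNT (exact adjusted p = 0.542) did not differ beyond their spread. Without A2M-128, 2 of the 9 pairs passed. The order and the test pooled both groups, whose medians ranked BNIP3, HIF1A and CA9 differently. In PBS tumours the medians were 68.3 RPKM for BNIP3, 52.8 RPKM for CA9 and 46.0 RPKM for HIF1A. In A2M* tumours they were 57.5 RPKM for HIF1A, 50.7 RPKM for BNIP3 and 25.4 RPKM for CA9. This difference in order between the groups was not tested.

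**Figure D1:**
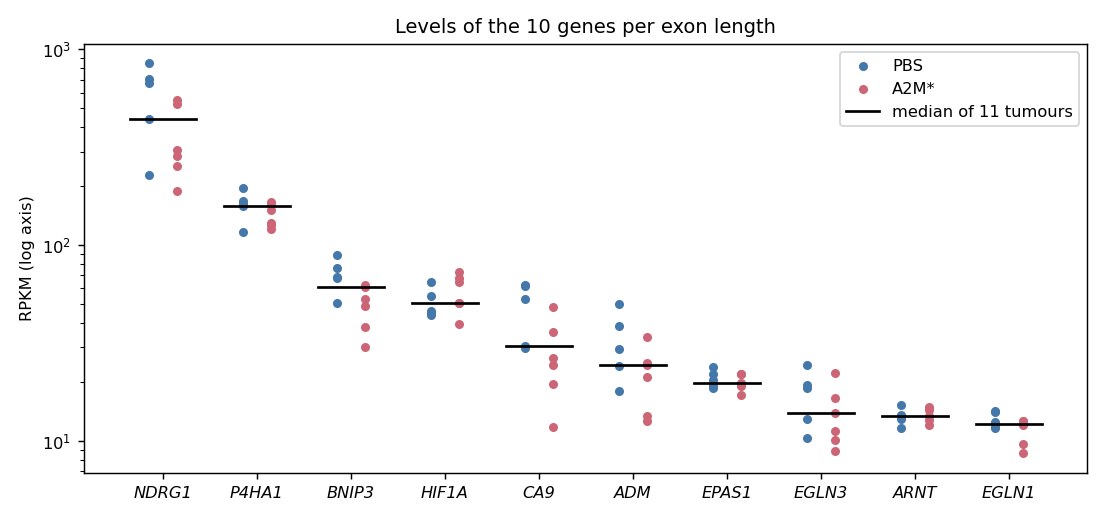
RPKM (log axis) of the 10 genes in the 5 PBS tumours (blue) and the 6 A2M* tumours (red), with the median of all 11 tumours as a line. NDRG1 has the highest median (440.4 RPKM) and EGLN1 the lowest (12.2 RPKM).

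HIF1A (GRCh37, chr14:62162231-62214977, plus strand) encodes the oxygen-regulated HIF-1 alpha subunit. Its level was 240, 211, 206, 282 and 196 CPM in PBS-123 to PBS-127, in this order. In the 6 A2M* tumours it ran from 169 to 311 CPM with a median of 248 CPM. The groups overlapped, with 2 A2M* tumours above and 1 below all PBS tumours, and the means were 227 ± 34.8 CPM (SD, n = 5) and 249 ± 54.7 CPM (SD, n = 6). An antisense gene, HIF1A-AS1, overlaps HIF1A on the opposite strand and had 3 to 14 counts, where HIF1A had 3749 to 9533. EPAS1 (chr2:46520806-46613836, plus strand), the HIF-2 alpha gene, lay between 94.6 and 127.2 CPM in PBS tumours and between 86.2 and 114 CPM in A2M* tumours. ARNT (chr1:150782189-150849184, minus strand), the shared partner, had the narrowest range of the 3, 56.7 to 74.6 CPM against 59.3 to 71.6 CPM. The coefficients of variation over all 11 tumours were 19.2% (HIF1A), 11.5% (EPAS1) and 8.15% (ARNT), the lowest of the 10 genes for ARNT.

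Within the tumours the RPKM ratio of HIF1A to EPAS1 ranged from 1.90 to 3.69 with a median of 2.31, so that HIF1A was above EPAS1 in 11 of 11 tumours. The RPKM ratio of HIF1A to ARNT ranged from 2.96 to 5.31. EGLN1 was above EGLN3 in 3 of 11 tumours, with RPKM ratios of 0.542 to 1.38. None of these 3 ratios passed the test between the treatment groups. The log2 differences of the ratio, A2M* minus PBS, were 0.22 for HIF1A to EPAS1 (exact permutation p = 0.320), 0.12 for HIF1A to ARNT (exact permutation p = 0.494) and 0.12 for EGLN1 to EGLN3 (exact permutation p = 0.680), each two-sided over 462 labelings and with an adjusted p of 0.680.

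EGLN1 (chr1:231499497-231558033, minus strand) encodes PHD2, the main oxygen sensor for HIF-1 alpha. It had 87.5, 85.8, 105, 98.5 and 84.8 CPM in PBS-123 to PBS-127, in this order, and 60.7 to 89.3 CPM with a median of 84.9 CPM in A2M* tumours. The groups overlapped, and A2M-128 and A2M-131 were the lowest, at 60.7 and 65.9 CPM. EGLN3 (chr14:34393433-34931980, minus strand) encodes PHD3, a strongly inducible HIF target. It had 27.9, 52.8, 68.6, 34.8 and 53.5 CPM in PBS-123 to PBS-127, in this order, and 24.1 to 58.8 CPM with a median of 33.5 CPM in A2M* tumours. Its highest level was 2.85 times its lowest over the 11 tumours, where that ratio was 1.73 for EGLN1.

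CA9 (chr9:35673925-35681156, plus strand) had 45.5, 85.7, 101, 47.1 and 97.6 CPM in PBS-123 to PBS-127, in this order. In A2M* tumours it had 17.6 to 73.3 CPM with a median of 38.8 CPM, and 4 of these 6 lay below every PBS tumour. The remaining A2M* tumours, A2M-129 and A2M-132, lay within the PBS range, and PBS-123 and PBS-126 had the lowest levels of their group. ARHGEF39 overlaps CA9 on the opposite strand and had 136 to 347 counts, against 489 to 3435 counts for CA9. The strand setting of the counting is not given in the sources used here. The library kit does not mark strand, so reads in the overlap cannot be assigned to either gene by strand.
NDRG1 had 782, 2559, 3061, 1523 and 2395 CPM in PBS-123 to PBS-127, in this order, and 639 to 1873 CPM with a median of 1016 CPM in A2M* tumours. The groups overlapped, PBS-123 lying among the low A2M* tumours. BNIP3 (chr10:133781188-133795471, minus strand) had 76.6, 108, 142, 117 and 107 CPM in PBS-123 to PBS-127, in this order, and 45.01 to 93.5 CPM with a median of 77.0 CPM in A2M* tumours. Here 4 of the 5 PBS tumours were above every A2M* tumour, and PBS-123 was not.
ADM (chr11:10326620-10328944, plus strand) had 25.8, 75.5, 57.9, 42.2 and 35.4 CPM in PBS-123 to PBS-127, in this order, and 17.7 to 47.8 CPM with a median of 32.5 CPM in A2M* tumours. P4HA1 (chr10:74766975-74856732, minus strand) had 347, 495, 615, 504 and 497 CPM in PBS-123 to PBS-127, in this order, and 354 to 485 CPM with a median of 417 CPM in A2M* tumours. For ADM and P4HA1, too, the groups overlapped, and PBS-123 was the lowest PBS tumour. Over all 11 tumours the highest level was 5.71 times the lowest for CA9, 4.79 times for NDRG1, 4.27 times for ADM, 3.14 times for BNIP3 and 1.77 times for P4HA1.

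**Figure D2:**
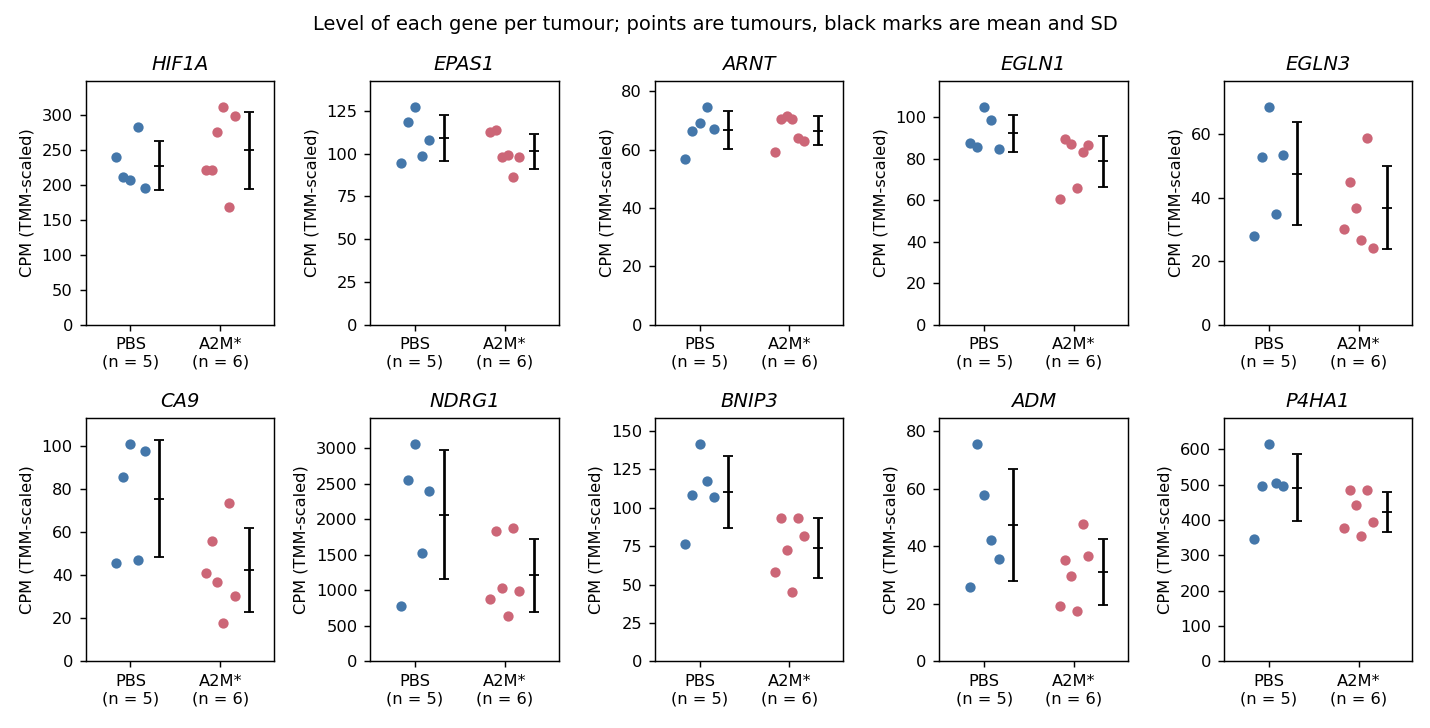
CPM (linear axes from 0) of each of the 10 genes in the 5 PBS tumours (blue) and the 6 A2M* tumours (red), with mean and SD in black. CA9, NDRG1, BNIP3 and ADM have lower means in A2M* tumours with overlapping points, and the HIF1A means are 227 and 249 CPM.

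In the comparison of A2M* with PBS tumours, the targets CA9, NDRG1, ADM and BNIP3 had the largest fitted differences, all with lower levels under A2M*, and the 3 HIF subunit genes had small ones. The log2 fold change was -0.83 for CA9 (95% interval -1.50 to -0.16) and -0.77 for NDRG1 (-1.49 to -0.06). It was -0.61 for ADM (-1.22 to -0.0036, SE 0.284) and -0.58 for BNIP3 (-0.97 to -0.18). On the linear scale these are A2M* levels of 0.561, 0.586, 0.653 and 0.671 times the PBS level. EGLN3 had a log2 fold change of -0.37 (SE 0.250), EGLN1 one of -0.23 (95% interval -0.46 to -2.5e-05, SE 0.107) and P4HA1 one of -0.22 (SE 0.128). For the subunits it was 0.13 for HIF1A (95% interval -0.18 to 0.45), -0.11 for EPAS1 (-0.31 to 0.09) and -0.01 for ARNT (-0.17 to 0.16). In these bulk samples, fewer cells that express a gene and less RNA per cell cannot be told apart.

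None of the 10 genes passed the threshold of an adjusted p of 0.01 in edgeR's quasi-likelihood test, with adjusted p-values of 0.640 for BNIP3, 0.642 for CA9, 0.681 for NDRG1, 0.701 for ADM and 0.705 for EGLN1, and 0.777 to 0.993 for the others. The background was 0% of the 16630 genes tested. DESeq2 likewise called 0 of the 10, with a lowest adjusted p of 0.280. At an unadjusted p under 0.05, 5 of the 10 genes (EGLN1, CA9, NDRG1, BNIP3 and ADM) were lower in A2M* tumours and 0 were higher, where 7.08% of all genes tested passed that threshold, 3.53% lower and 3.55% higher. The fitted log2 fold change was below 0 for 9 of the 10 genes (8 with upper-quartile factors or library size only, where ARNT was above 0), against 50.6% of all genes, and its median was -0.30 against -0.0021 over all genes. No gene of the 10 had groups that did not overlap, where 0.325% of all genes had every A2M* tumour below every PBS tumour and 0.385% every A2M* tumour above. The 10 genes were chosen with earlier results of these data known, so this count is not an independent test. In the quasi-likelihood test EGLN1 (unadjusted p = 0.04998) and ADM (unadjusted p = 0.0489) lay just under 0.05. The count of 5 depended on single tumours. It was 1 without PBS-125, 2 without A2M-128 or A2M-131, and 3 without PBS-124, PBS-126, A2M-130 or A2M-112. By DESeq2 it was 4.

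**Figure D3:**
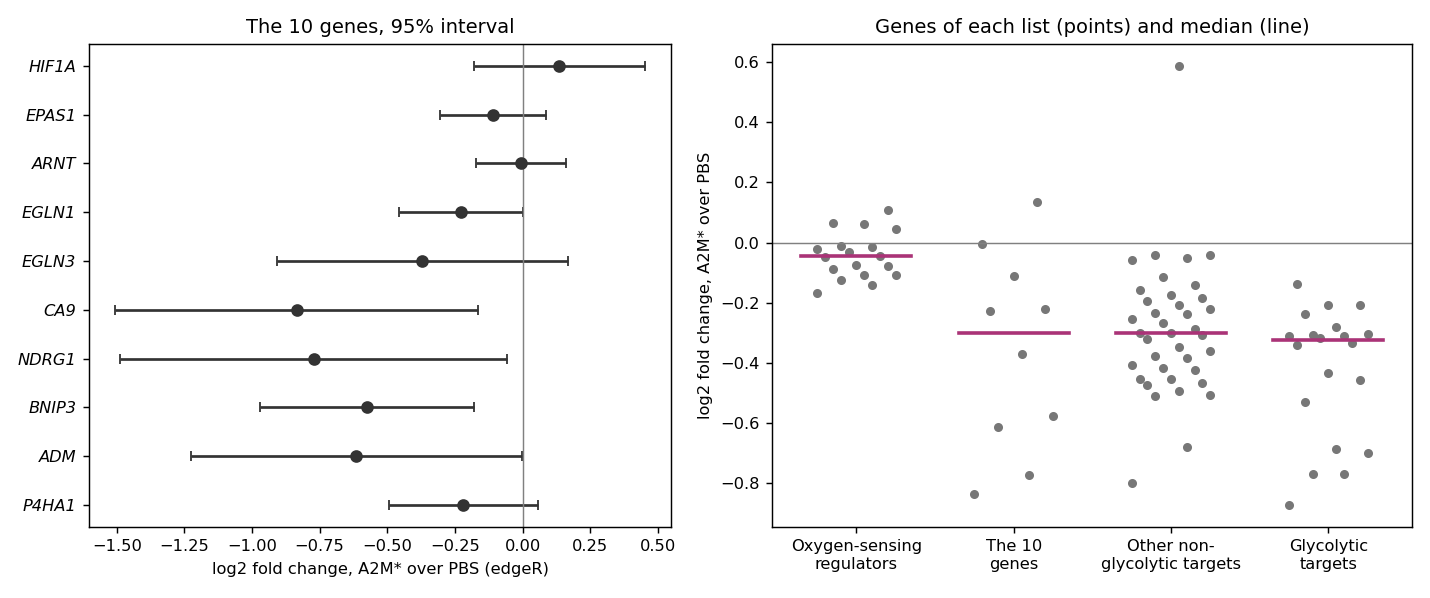
Left, log2 fold change of A2M* over PBS for the 10 genes with 95% intervals from edgeR. Right, the same value for each tested gene of 4 lists, with the median as a line (-0.05 for the oxygen-sensing regulators, -0.30 for the 10 genes and for the other non-glycolytic targets, -0.32 for the glycolytic targets).

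The regulators of HIF outside the 10 genes showed small differences. Of 19 listed, 18 could be tested, and 0 had an unadjusted p under 0.05 in either direction (7.08% of all genes tested). At that share few of 18 genes would pass, so the count of 0 does not show that they were unchanged. The median log2 fold change was -0.05, with a range of -0.17 to 0.11. The fitted difference was below 0 for 14 of the 18 (50.6% of all genes tested), and for 9 with library size only. The lowest p-values belonged to RBX1, of the ubiquitin ligase that marks the alpha subunit (log2 fold change -0.11, adjusted p = 0.761), GNB2L1, encoding RACK1, which binds HIF-1 alpha (-0.14, adjusted p = 0.770), and OS9, an endoplasmic reticulum lectin (-0.11, adjusted p = 0.783). Among regulators with higher fitted levels the first were the coactivators EP300 (0.11, adjusted p = 0.827) and CREBBP (0.06, adjusted p = 0.917) and the ligase scaffold CUL2 (0.07, adjusted p = 0.922). HIF1AN, the asparaginyl hydroxylase that blocks the transactivation domain of the alpha subunit, had 75.4 ± 1.79 CPM (SD, n = 5) in PBS tumours and 73.8 ± 1.67 CPM (SD, n = 6) in A2M* tumours.
The paralogues of the subunits were expressed at lower levels. HIF3A, the third alpha subunit gene, had means of 1.32 and 1.19 CPM (log2 fold change -0.17, SE 0.166), and ARNT2, a paralogue of ARNT, 4.63 and 4.34 CPM (log2 fold change -0.09, SE 0.132). EGLN2, which encodes PHD1, had 2 to 14 counts per tumour and was not tested. Its exons overlap the readthrough gene RAB4B-EGLN2 on the same strand, which had 0 counts in every tumour, and the value of EGLN2 is uncertain for this reason.

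The other targets outside glycolysis showed the same direction of the fitted difference as the 5 target genes above. Of 40 listed, 38 could be tested, 13 were lower and 0 higher in A2M* tumours at an unadjusted p under 0.05 (3.53% and 3.55% of all genes tested), and none passed the adjusted threshold in edgeR or DESeq2. The fitted difference was below 0 for 37 of 38 (35 with library size only), against 50.6% of all genes, with a median log2 fold change of -0.30. HILPDA, a lipid droplet protein, had 96.8 ± 39.5 CPM (SD, n = 5) against 55.8 ± 15.1 CPM (SD, n = 6), with a log2 difference of -0.80 (adjusted p = 0.640). BNIP3L, the paralogue of BNIP3 in mitophagy, had a log2 fold change of -0.45 (adjusted p = 0.640), and AK4, a mitochondrial adenylate kinase, one of -0.41 (adjusted p = 0.640). The count of 13 was 5 without PBS-125 and 21 without PBS-123. This list, like that of the regulators, was chosen with earlier results of these data known, so its counts are not an independent test.

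The glycolysis and glucose transport targets, listed for reference, had lower levels in A2M* tumours for 16 of 20 at an unadjusted p under 0.05 (3.53% of all genes tested), and the fitted difference was below 0 for all 20 (50.6% of all genes), with a median log2 fold change of -0.32. None passed the adjusted threshold, in edgeR or in DESeq2, whose lowest adjusted p was 0.0637. This list, too, was chosen with earlier results of these data known. PDK1, the kinase that restrains pyruvate entry into the citric acid cycle, was the gene with non-overlapping groups (0.325% of all genes had every A2M* tumour lower), at 70.6 ± 14.1 CPM (SD, n = 5) against 41.5 ± 11.9 CPM (SD, n = 6), with a log2 difference of -0.77 (adjusted p = 0.599). TPI1 and PGK1, enzymes of the glycolytic chain, had log2 fold changes of -0.31 and -0.43 (adjusted p = 0.629 and 0.640).

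Across the 11 tumours the 6 targets EGLN3, CA9, NDRG1, BNIP3, ADM and P4HA1 were positively correlated with each other. HIF1A had negative correlations with all 6, of which those with CA9 and EGLN3 passed with Pearson's r. With Spearman's rho that with NDRG1 passed too. EGLN3 was set beside the 5 targets, and EGLN1 was not, after their correlations had been seen. Passing among these 6 is therefore not an independent test of the grouping. All 15 pairs among these 6 had positive correlations of log2 CPM, with Pearson's r of 0.725 to 0.937 and Spearman's rho of 0.645 to 0.909. With Pearson's r all 15 passed an adjusted permutation p of 0.05 over the 45 pairs of the 10 genes. The share of pairs of all genes that reach such values was not computed. Ranked by r among 12453 genes, a member of the 6 stood between 5 (NDRG1 for P4HA1) and 898 (ADM for CA9) for another member. Many genes outside the 6 were thus as close. With Spearman's rho 3 of the 15 did not pass, namely EGLN3 and BNIP3 (permutation adjusted p = 0.0821), EGLN3 and ADM (permutation adjusted p = 0.0920) and CA9 and ADM (permutation adjusted p = 0.0508). NDRG1 and P4HA1 had the highest r, 0.937 (rho 0.891, permutation p = 5e-05, adjusted p = 0.00165). Between NDRG1 and CA9 r was 0.915 (rho 0.909, permutation p = 8e-05, adjusted p = 0.00165), and between NDRG1 and EGLN3 it was 0.919 (rho 0.900, permutation p = 0.00017, adjusted p = 0.00191). Taken as deviations from the group means, r among the 15 pairs was 0.662 to 0.925 and 12 of the 15 passed. PBS-124, PBS-125 and PBS-127 were high in CA9, NDRG1 and EGLN3, and PBS-123 and PBS-126 low in these genes, so that the spread lay within the treatment groups as well as between them.

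HIF1A mRNA was negatively correlated with CA9 (r = -0.835, rho = -0.845, permutation p = 0.00128, adjusted p = 0.00480) and with EGLN3 (r = -0.801, rho = -0.864, permutation p = 0.00396, adjusted p = 0.0119). As deviations from the group means these correlations were -0.901 and -0.795, with adjusted p-values of 0.00531 and 0.0219. For HIF1A and NDRG1 r was -0.679 and did not pass (permutation p = 0.0243, adjusted p = 0.0520). With Spearman's rho (-0.736) this pair passed (permutation adjusted p = 0.0385). For BNIP3, ADM and P4HA1 r was between -0.470 and -0.510 without passing. A2M-131 had the highest HIF1A level (311 CPM) and the lowest CA9 level (17.6 CPM), and A2M-132 had the lowest HIF1A level (169 CPM) with 73.3 CPM of CA9. The 2 tumours farthest from the median of HIF1A on the log2 scale were A2M-131 and A2M-112 (298 CPM). Without them r was -0.708 with CA9 and -0.678 with EGLN3, and neither passed. Fewer tumours also make passing harder, so it cannot be told how far these calls rest on those 2.

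**Figure D4:**
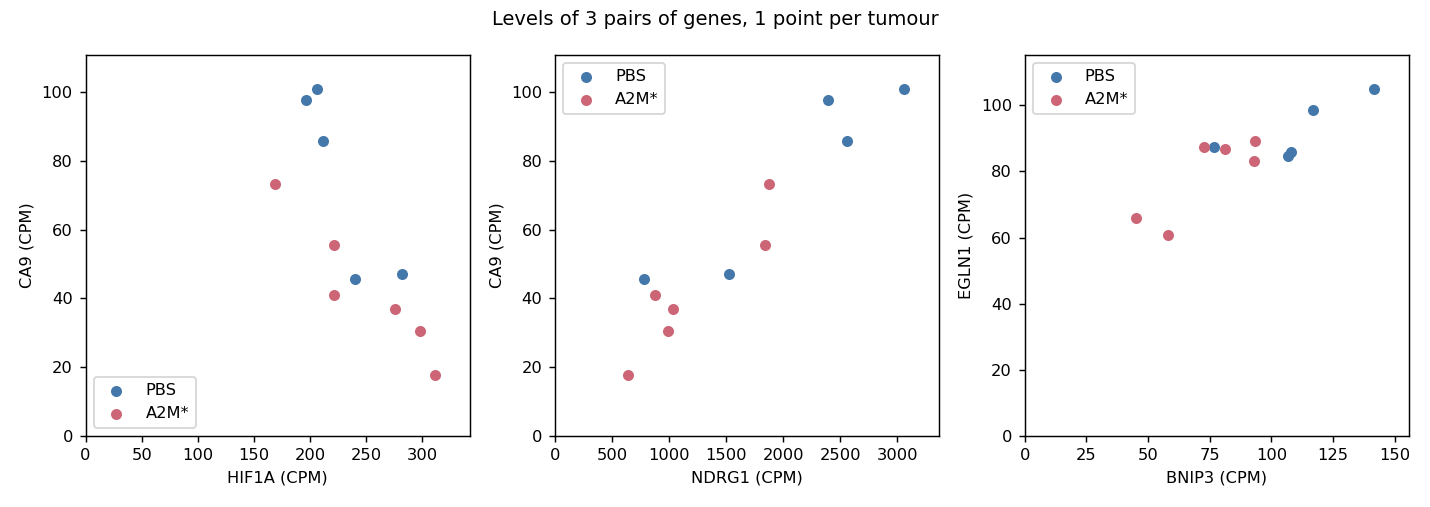
CPM (linear axes from 0) of HIF1A and CA9, NDRG1 and CA9, and BNIP3 and EGLN1, with each PBS tumour in blue and each A2M* tumour in red. CA9 is lower where HIF1A is higher (r = -0.835 on log2 CPM) and higher where NDRG1 is higher (r = 0.915), and the 2 tumours lowest in EGLN1 are also the lowest in BNIP3.

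EGLN1 was correlated with BNIP3 (r = 0.858, rho = 0.636, permutation p = 0.00100, adjusted p = 0.00450), with ADM (r = 0.721, rho = 0.391, permutation p = 0.0118, adjusted p = 0.0284) and with P4HA1 (r = 0.693, rho = 0.455, permutation p = 0.0170, adjusted p = 0.0384). None of these 3 passed with Spearman's rho, and without the 2 tumours farthest from the median of EGLN1 the r values were 0.678, 0.247 and 0.558 and none passed. With EGLN3 (r = 0.469, permutation adjusted p = 0.235), CA9 (r = 0.538, permutation adjusted p = 0.169) and NDRG1 (r = 0.616, permutation adjusted p = 0.0811) EGLN1 did not pass. EPAS1 and ARNT had no correlation with the 6 targets that passed, with r of 0.310 to 0.519 and -0.0046 to 0.543. For EPAS1 the sign differed between the groups. Its r with the 6 targets was 0.753 to 0.949 within PBS tumours and -0.493 to -0.117 within A2M* tumours. For ARNT these ranges were 0.253 to 0.833 and -0.244 to 0.242. The differences between the groups were not tested. In all, 20 of the 45 pairs passed, of which 9 also passed without the 2 tumours farthest from the median of the first gene. Without PBS-125 or A2M-131, 15 of the 20 passed. The pairs share their libraries and scaling factors, and with scaling by library size alone 18 of the 20 passed.

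**Figure D5:**
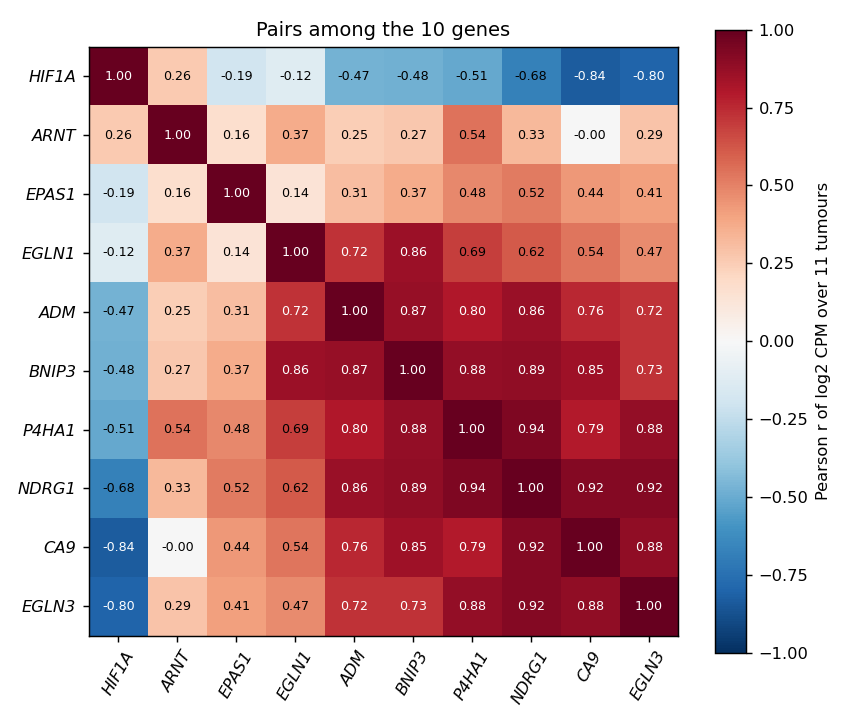
Pearson's r of log2 CPM over the 11 tumours for each pair of the 10 genes, from blue (-1) to red (1). The 6 targets EGLN3, CA9, NDRG1, P4HA1, BNIP3 and ADM, grouped after their correlations had been seen, have positive values with each other (0.725 to 0.937). HIF1A is negative with each of them (-0.835 to -0.470).

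Among 12453 genes with a mean of at least 2 on the log2 CPM scale, those most alike to each of the 10 genes over the 11 tumours were listed by Pearson's r as a description, without a test. For HIF1A they were ARHGAP11A (r = 0.983), XRCC2 (0.981) and WDHD1 (0.980). For CA9 they were SPAG4 (0.974), STC2 (0.971) and PLEKHG6 (0.970), and for BNIP3 they were AK4 (0.979), INSIG2 (0.977) and BNIP3L (0.970). NDRG1 was most like CSNK1E (0.972), SCNN1G (0.962) and SH3D21 (0.958). ADM was most like VOPP1 (0.959), AMPD3 (0.946) and PPP1R3B (0.933), and P4HA1 most like EIF4B (0.968), SLC2A3 (0.962) and IRS2 (0.946). EGLN1 was most like the glycolytic list members HK2 (0.943) and PDK1 (0.942), then CLUAP1 (0.938), and EGLN3 most like RPS3 (0.954), NPC2 (0.949) and EFNA1 (0.948). For EPAS1 the values were lower, with MAFG (0.896), MYADM (0.895) and SQSTM1 (0.882), and for ARNT they were MLF1 (0.950), ARHGAP24 (0.919) and PJA2 (0.918). BNIP3, itself among the 10 genes, ranked 20 of 12453 for EGLN1, but 724 for EGLN3. ADM ranked 733 for EGLN3 and 898 for CA9.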

How the data were processed

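RNA of PC-3 xenograft tumours was sequenced as single reads (TruSeq RNA kit v2, which does not mark strand). Per the study's methods, the authors split human from mouse reads with xenome, mapped the human reads with TopHat2 to hg19 and counted reads per RefSeq gene with featureCounts. The deposited counts were raw whole numbers, 16958533 to 35874381 per tumour. The deposited RPM were each count relative to the tumour's total, checked to within 4.99e-07, and the deposited RPKM values divide RPM by exon length. Tumours were grouped by the treatment label. As a check for a library deposited more than once, the counts of all pairs of tumours were compared, and none agreed within sampling noise (chi-square per degree of freedom 8.72 to 62.5). This does not show that the tumours came from different mice.

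The counts were scaled with TMM, filtered with filterByExpr and fitted over the 16630 remaining genes with edgeR's quasi-likelihood test (edgeR 4.0.16, R 4.3.3), treatment being the sole term. P-values were adjusted by the Benjamini-Hochberg method over all genes tested and the threshold was 0.01. DESeq2 1.42.0, limma 3.58.1, other scalings and filters, and the omission of each tumour were alternatives. The scripts were tested on simulated data. Correlations used log2 CPM with a prior count of 2 and 100000 permutations, and levels between genes used log2(RPKM + 0.1). Coordinates of genes are GENCODE positions on GRCh37, the same assembly as hg19. The counts and promoter windows were of RefSeq genes, whose extents can differ from these positions.

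The 10 genes and all lists were chosen with earlier results of these data known. Named besides the 10 genes were the 3 genes of smallest p in each direction of each of the 3 lists, the paralogues EGLN2, HIF3A, ARNT2 and HIF1AN, and the 3 genes most alike to each of the 10. Single marker genes and genes overlapping the 10 were named as well. A gene that this rule names is not reported here.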

Additional observations from a re-analysis of the deposited data

How the results depend on the processing

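No gene passed the adjusted threshold of 0.01 in the comparison over all genes, and 1 gene passed with DESeq2, with the edgeR likelihood ratio test and with the edgeR exact test. When edgeR and DESeq2 each had to give an unadjusted p of 0.01 or less, 241 genes passed, of which 1 was among the 10 genes. The count of 5 of the 10 genes at an unadjusted p under 0.05 was 3 with upper-quartile factors, with library size only, with at least 10 counts in every tumour and with limma-voom, and 2 with limma on log2(RPKM + 0.1) or log2(RPKM + 1). Leaving out each tumour gave 0 genes over all genes, 1 to 5 of the 10 genes, 18 to 39 over the 3 pathway lists (29 with all tumours), 0 to 2 regulators, 5 to 21 other non-glycolytic targets, 13 to 19 glycolytic targets, 15 to 23 pairs and 2 to 5 neighbours. The pairs numbered 9 without the 2 tumours farthest from the median of the first gene, and with the PBS tumours only, where 5 tumours cannot reach the threshold, 0 neighbours passed.

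Of 598 values of the log2 fold changes of 26 named genes, 12 changed sign, all of them of ARNT or HIF1AN, whose differences were near 0. ARNT was at 0.00796 with upper-quartile factors, 0.0387 with library size only, 0.0399 with limma on log2(RPKM + 0.1) and 0.0373 with log2(RPKM + 1), and -0.0595 to 0.0361 when a tumour was left out. HIF1AN was at 0.0135 with library size only and 0.0138 and 0.0127 in the limma fits on RPKM. BNIP3 over HIF1A in log2 RPKM was -0.0187 to 0.205, and the EGLN1 to EGLN3 ratio difference, an alternative chosen after seeing the data, -0.0174 to 0.279 when a tumour was left out. The median log2 fold change of all genes was -0.0021 and, at the farthest under another scaling, 0.0419 with library size only. The causes of these shifts were not tested. No paired analysis was possible because the groups share no tumour numbers.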
